A study of Mus musculus with 2 samples.

Results

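The 8 genes described here, Bhlhe41, Zbtb32, Ctla4, Cd9, Cd5, Itgam, Nid1 and Plscr1, are genes known from B1 cells. They are 8 of the 31053 genes counted, and were followed in single myocardial B cells of wild-type C57BL6/J mice. The cells were the droplets with at least 2000 UMIs (unique molecular identifiers, each marking 1 captured mRNA molecule), at most 10% mitochondrial UMIs and a UMI of Cd79a, a subunit of the B cell receptor. The rule gave 2077 cells in the neonatal library (mice of 2 weeks, male and female, 15 days old in the title of the sample) and 3611 cells in the adult library (males of 8 weeks). For each age, live CD45+ B cells were sorted from the pooled hearts of 6 mice, processed in 2 tubes of 3 hearts, and sequenced as 1 library. With 1 library per age, age and library cannot be told apart, sex differs with age, and no test between the ages was possible. All intervals given are exact 95% intervals that cover counting error only, not the spread between mice.

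B1 cells are B lymphocytes that arise largely in fetal and neonatal life, renew themselves, secrete natural IgM and are best known from the body cavities. B1a cells carry CD5 and B1b cells do not, and both carry CD11b, the product of Itgam, in the cavities. Bhlhe41 is a transcriptional repressor that B1a cells need, and Zbtb32 is a zinc finger repressor found in B1 and memory B cells. Ctla4 and Cd5 restrain signalling, Cd9 is a tetraspanin of marginal zone, B1 and antibody-secreting cells, and Itgam pairs with Itgb2 to form an integrin. The study also listed Cd9 and Ctla4 for CD11b+ cells from these same libraries, so their place among the 8 is not independent of the data. Nid1 encodes nidogen, a protein of basement membranes, and Plscr1 a phospholipid scramblase that interferons induce.

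The 8 genes lie on 6 autosomes of the GRCm38 build (GENCODE vM21). Bhlhe41 lies on chromosome 6 from 145858243 to 145865558 on the minus strand, Cd9 on chromosome 6 from 125460266 to 125494791 on the minus strand, and Zbtb32 on chromosome 7 from 30589681 to 30598909 on the minus strand. Itgam lies on chromosome 7 from 128062640 to 128118491 on the plus strand, Ctla4 on chromosome 1 from 60887000 to 60915832 on the plus strand, and Cd5 on chromosome 19 from 10717116 to 10739002 on the minus strand. Nid1 lies on chromosome 13 from 13437551 to 13512269 and Plscr1 on chromosome 9 from 92249750 to 92272278, both on the plus strand. An annotated gene on the same strand overlaps Ctla4 (Rpl18-ps1) and Itgam (Gm49368), and how reads there were counted was not tested. The other 6 genes had 0 such overlaps.

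The promoters of 3 genes are printed because the results turn on them: Bhlhe41 departed from most of the other genes in neonatal cells, and the proteins of Cd5 and Itgam divide the B1 subsets. The sequences are from RefSeq (GRCm38.p6), run 5′ to 3′ in the direction of the gene and take in 250 bases before and 50 after its start. Capitals mark CACGTG, the E-box that basic helix-loop-helix factors bind, in Bhlhe41 (chr6:145865371-145865670), and GAGGAA, the core of the PU.1 site, or its reverse complement in Cd5 (chr19:10738925-10739224) and Itgam (chr7:128062390-128062689).
Bhlhe41: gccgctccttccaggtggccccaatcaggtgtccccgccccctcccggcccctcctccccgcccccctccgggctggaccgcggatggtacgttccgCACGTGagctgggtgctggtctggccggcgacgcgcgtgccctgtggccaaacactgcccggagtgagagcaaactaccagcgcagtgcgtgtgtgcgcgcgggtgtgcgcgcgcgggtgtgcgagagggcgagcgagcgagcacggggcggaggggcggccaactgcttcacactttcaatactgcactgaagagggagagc
Cd5: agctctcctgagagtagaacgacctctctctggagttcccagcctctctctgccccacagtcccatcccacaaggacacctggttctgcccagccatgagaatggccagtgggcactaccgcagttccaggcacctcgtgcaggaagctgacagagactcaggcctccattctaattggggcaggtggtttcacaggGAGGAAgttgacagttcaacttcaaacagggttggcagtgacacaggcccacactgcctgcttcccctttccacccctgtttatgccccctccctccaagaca
Itgam: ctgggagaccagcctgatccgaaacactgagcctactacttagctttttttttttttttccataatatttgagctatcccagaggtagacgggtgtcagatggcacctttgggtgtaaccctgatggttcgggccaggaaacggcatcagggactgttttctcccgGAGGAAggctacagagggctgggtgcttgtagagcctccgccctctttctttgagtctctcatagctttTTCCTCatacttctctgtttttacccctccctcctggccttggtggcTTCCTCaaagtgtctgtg
CACGTG, which reads the same on both strands, was present in the promoter of 1 of the 8 genes, Bhlhe41, and in 7.15% of all 32851 promoters. GAGGAA, searched on both strands, was present in 4 of the 8 (Cd5, Itgam, Nid1 and Plscr1) and in 28.3% of all promoters. The octamer ATGCAAAT, in 1.74% of all promoters, and the spaced pair of half-sites of the interferon-stimulated response element, in 3.44%, were searched on both strands and matched 0 of the 8. These matches describe letters in the window. The libraries counted transcripts and did not measure promoters.

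The cells held 16403180 gene UMIs in neonatal and 34623240 in adult cells, with medians of 6000 and 6131 UMIs per cell. Levels are given as CPM (a gene's UMIs over all UMIs of the cells, scaled to counts per 1000000). Of the B cell markers, Cd79b was at 1800 CPM in neonatal and 1263 CPM in adult cells, Ms4a1 at 1347 and 1154 CPM, and Pax5 at 258 and 281 CPM. The 10 myeloid markers summed to 111 CPM in the neonatal and 13.1 CPM in the adult cells, with S100a8 and S100a9 at 0 in the adult, and the 9 T cell markers to 11.3 and 15.3 CPM, with Cd4 and Icos at 0 in the neonatal. Cells with at least 2 UMIs of T cell, myeloid, NK, stromal or platelet markers numbered 47 in neonatal and 69 in adult cells when Pecam1 was left out of the lists. Pecam1 itself was in B cells of every kind, at 145 and 122 CPM in neonatal and adult cells with 0 of the 8 genes at 4000 UMIs and at 81.2 and 100.1 CPM in cells with 3 or more. These cells stayed in unless stated, and several main values are also given without them. Doublets were not removed. Of the cells, 61 neonatal and 45 adult carried a barcode with at least 500 UMIs in the other library, and 2 barcodes were cells in both.

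The regulator Bhlhe41 was measured at 35.3 CPM in neonatal cells (32.5 to 38.3, 579 UMIs) and 22.9 CPM in adult cells (21.4 to 24.6, 794 UMIs). Its log2 ratio of adult over neonatal was -0.62 (-0.78 to -0.47). Zbtb32 was at 24.7 CPM in the neonatal (22.3 to 27.2) and 19.5 CPM in the adult library (18.1 to 21.0), a log2 ratio of -0.34 (-0.52 to -0.16). Both regulators were thus lower in the adult library, with intervals that did not overlap.

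Of the surface molecules, Ctla4, an inhibitory receptor, had 21.3 CPM in neonatal (19.1 to 23.6) and 36.7 CPM in adult cells (34.7 to 38.7), a log2 ratio of 0.78 (0.61 to 0.96). Cd9 was nearly level, at 46.4 CPM (43.2 to 49.8) and 44.7 CPM (42.5 to 47.0), a log2 ratio of -0.05 (-0.18 to 0.07). Cd5 was the rarest gene, with 84 UMIs or 5.12 CPM in neonatal cells (4.08 to 6.34) and 96 UMIs or 2.77 CPM in adult cells (2.25 to 3.39), a log2 ratio of -0.89 (-1.32 to -0.45). Itgam had 100 UMIs or 6.10 CPM in neonatal cells (4.96 to 7.41) and 293 UMIs or 8.46 CPM in adult cells (7.52 to 9.49), a log2 ratio of 0.47 (0.14 to 0.82). Ctla4 and Itgam were thus higher and Cd5 lower in the adult library, and the Cd9 intervals overlapped. The direction of Itgam turned, to -0.60, with a mitochondrial limit of 7%. Other cell types bore on several of these values. The 23 neonatal cells with at least 2 myeloid UMIs held 52.0% of the neonatal Itgam UMIs and 15.5% of those of Cd9, and the 31 such adult cells 7.85% of Itgam. Without all cells bearing markers of other cell types, the log2 ratio of Itgam was 1.30, of Ctla4 1.01 and of Cd9 0.32. The 13 neonatal cells with at least 2 T cell UMIs held 22.1% of the Ctla4 UMIs, and the 27 adult ones 19.8% of those of Cd5.

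Nid1, of which B cells are not the usual source, was measured at 20.8 CPM in neonatal (18.7 to 23.2) and 28.6 CPM in adult cells (26.8 to 30.4), a log2 ratio of 0.46 (0.28 to 0.64). Plscr1 was at 34.5 CPM (31.7 to 37.5) and 29.2 CPM (27.5 to 31.1), a log2 ratio of -0.24 (-0.39 to -0.09). Genes of the interferon response had the opposite direction to Plscr1: Isg15 was at 9.39 CPM in neonatal and 52.8 CPM in adult cells, a log2 ratio of 2.49 (2.25 to 2.74), Ifit3 at 3.96 and 63.1 CPM, 3.99 (3.64 to 4.37), and Usp18 at 2.19 and 18.1 CPM, 3.04 (2.56 to 3.57).

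Of the 8 genes, 0 were at least 2-fold higher in adult cells and 0 in neonatal cells, where 3.25% and 3.96% of the 10703 genes with at least 50 UMIs were. Without the cells bearing markers of other cell types, Ctla4 and Itgam were past 2-fold. The median log2 ratio of the 8 was -0.15 and of all genes -0.13, though that of the 8 was above 0 under 6 of 13 other ways of choosing or scaling the cells, at up to 0.42. Of the 8, 3 were higher in adult cells, against 35.7% of all genes. Lower Bhlhe41 and Cd5 and higher Ctla4 and Nid1 in the adult held their direction in all 13 other ways of choosing or scaling the cells. The other 4 did not. Itgam was at -0.60 with a mitochondrial limit of 7%, and Cd9 was above 0 in 7 of the 13. For Zbtb32 and Plscr1, without the 5% of cells with most UMIs, the log2 ratios were 0.36 and 0.12, and without the cells whose barcode was shared between the libraries 0.10 and 0.017. These 2 settings overlap: 59 of the 61 neonatal and 43 of the 45 adult cells with a shared barcode were among the 5% with most UMIs. The 61 neonatal ones held 12.6% of all UMIs, 39.3% of those of Zbtb32 and 30.0% of those of Plscr1. The 45 adult ones held 8.05%, 13.0% and 12.1%. The cause was not tested.

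**Figure D1:**
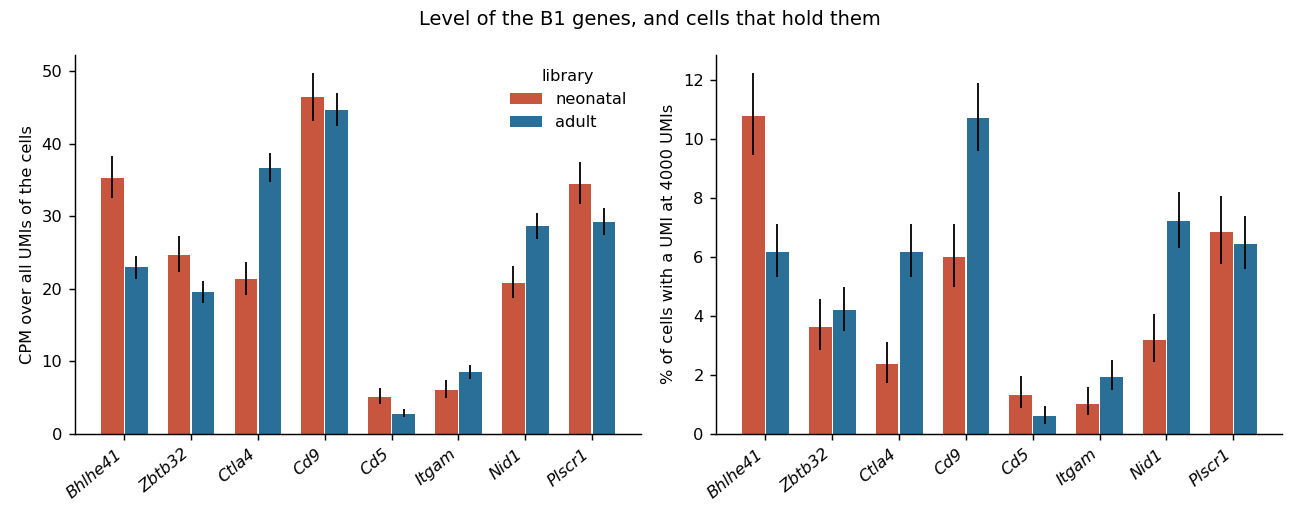
Left, level of each B1 gene in CPM over all UMIs of the neonatal (2077) and adult (3611) cells. Right, percent with at least 1 UMI among the 1953 neonatal and 2883 adult cells that reached 4000 UMIs, each thinned to 4000. Bars start at 0 and lines are exact 95% intervals. Cd9 has overlapping intervals of its level in the 2 libraries but is found in more adult cells, and Bhlhe41 is found in more neonatal cells.

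The genes were spread differently over the cells in the 2 libraries. The 761 neonatal Cd9 UMIs lay in 223 cells (10.7% of cells, 3.41 UMIs per positive cell), and the 1548 adult ones in 667 cells (18.5%, 2.32 per positive cell). Zbtb32 lay in 7.41% of neonatal cells at 2.63 UMIs per positive cell and in 9.97% of adult cells at 1.88, and Nid1 in 6.98% at 2.36 and 14.3% at 1.92. Bhlhe41 went the other way, in 18.2% of neonatal cells at 1.54 UMIs and 12.2% of adult cells at 1.80. A matched depth of 4000 UMIs was reached by 1953 neonatal (94.0%) and 2883 adult cells (79.8%), so more adult cells of low depth were left out. There, a UMI was found for Bhlhe41 in 10.8% of neonatal and 6.17% of adult cells, for Cd9 in 5.99% and 10.7%, for Ctla4 in 2.36% and 6.17%, and for Nid1 in 3.17% and 7.21%. Zbtb32 was in 3.64% and 4.20% and Plscr1 in 6.86% and 6.45%, with overlapping intervals.

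Cells with a B1 gene were also deep cells. Those with Cd9 had a median of 13881 UMIs in neonatal and 14461 in adult cells, against 5788 and 5101 for cells without. The neonatal cells with Bhlhe41 were the exception, at 7623 UMIs against 5855, where the adult ones had 16228 against 5385. With all UMIs, a UMI of any rare gene is found more often in deeper cells. Other genes of like level were not compared, so the medians alone do not set the B1 genes apart. The 104 neonatal cells with most UMIs, which held 18.2% of all UMIs, held 59.0% of the Zbtb32, 52.2% of the Cd9 and 23.8% of the Bhlhe41 UMIs. The 181 deepest adult cells held 22.2% of all UMIs, and 36.7%, 26.7% and 32.4% of these genes. Whether such droplets held more than 1 cell was not tested.

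Cells with several of the 8 genes were more common than independent genes would give. At 2000 UMIs per cell, 10 of 2077 neonatal cells (0.481%, 0.231% to 0.884%) and 31 of 3611 adult cells (0.858%, 0.584% to 1.22%) held 3 or more of the 8, where 1.14 and 2.65 cells would if the genes were independent. At 4000 UMIs, 50 neonatal (2.56%, 1.91% to 3.36%) and 110 adult cells (3.82%, 3.15% to 4.58%) did, against 6.52 and 18.9. The share was thus several times that of independent genes in both libraries. The difference between the libraries hung on the depth, on which cells reached it and on the draw. Cells that reached 4000 UMIs were 94.0% of the neonatal and 79.8% of the adult cells, so the 2 sets were not cut alike. Over 20 other thinnings the mean shares were 0.763% and 0.791% at 2000 UMIs, and 2.51% (2.05% to 2.97% over the draws) and 3.85% (3.05% to 4.30%) at 4000 UMIs. With all UMIs, 176 neonatal (8.47%) and 502 adult cells (13.9%) had 3 or more, and 1 neonatal and 8 adult cells had all 8. A cut at 3 is a point on a range and not a cell type: at 4000 UMIs, 83 neonatal and 193 adult cells had exactly 2.

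Pair by pair, cells with both genes were counted and divided by the number expected from the 2 shares. At 2000 UMIs, 6 of the 10 neonatal and 16 of the 17 adult pairs with at least 1 expected cell reached 2 times the expected number, as 4.69% and 4.07% of pairs of a B1 gene with any other gene did. At 4000 UMIs, 13 of 21 neonatal and 22 of 26 adult pairs did, against 3.68% and 2.4%. With all UMIs, and the expected number summed over 10 bins of cells of like depth, the interval lay above the expected number for 16 of 28 neonatal and 27 of 28 adult pairs, as it did for 1.59% and 2.26% of the pairs with other genes. Without the cells bearing markers of other cell types, the numbers were 13 and 27. The ratios in depth bins were smaller than those after thinning, with medians of 1.44 and 1.48 in all cells. Without the cells bearing markers of other cell types, the medians were 1.49 and 1.51. Over the 20 other thinnings to 4000 UMIs, the neonatal pairs without Bhlhe41 had a median of 4.27 times the expected number, and the adult ones 2.94. The strongest neonatal pair was Zbtb32 with Nid1 (18.45 cells where 2.44 were expected, 7.55 times), followed by Zbtb32 with Cd9 (6.19) and Cd9 with Nid1 (6.02). The neonatal pair of Cd9 with Itgam was at 5.59, and at 1.96 without the cells bearing markers of other cell types. Ctla4 with Itgam was the neonatal pair farthest below its expected number in depth bins, in 3 cells where 8.43 were expected (ratio 0.36, 0.0734 to 1.04). In the adult library it was in 81 cells where 59.7 were (ratio 1.36, 1.08 to 1.69). Without the cells bearing markers of other cell types, the lowest neonatal ratio of any of the 28 pairs in depth bins was 0.65. In the thinnings to 4000 UMIs, the adult values of Zbtb32 with Nid1, Zbtb32 with Cd9 and Cd9 with Nid1 were 3.24, 3.13 and 2.52. The strongest adult pair there was Ctla4 with Cd5 at 5.31, on 6.55 cells.

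**Figure D2:**
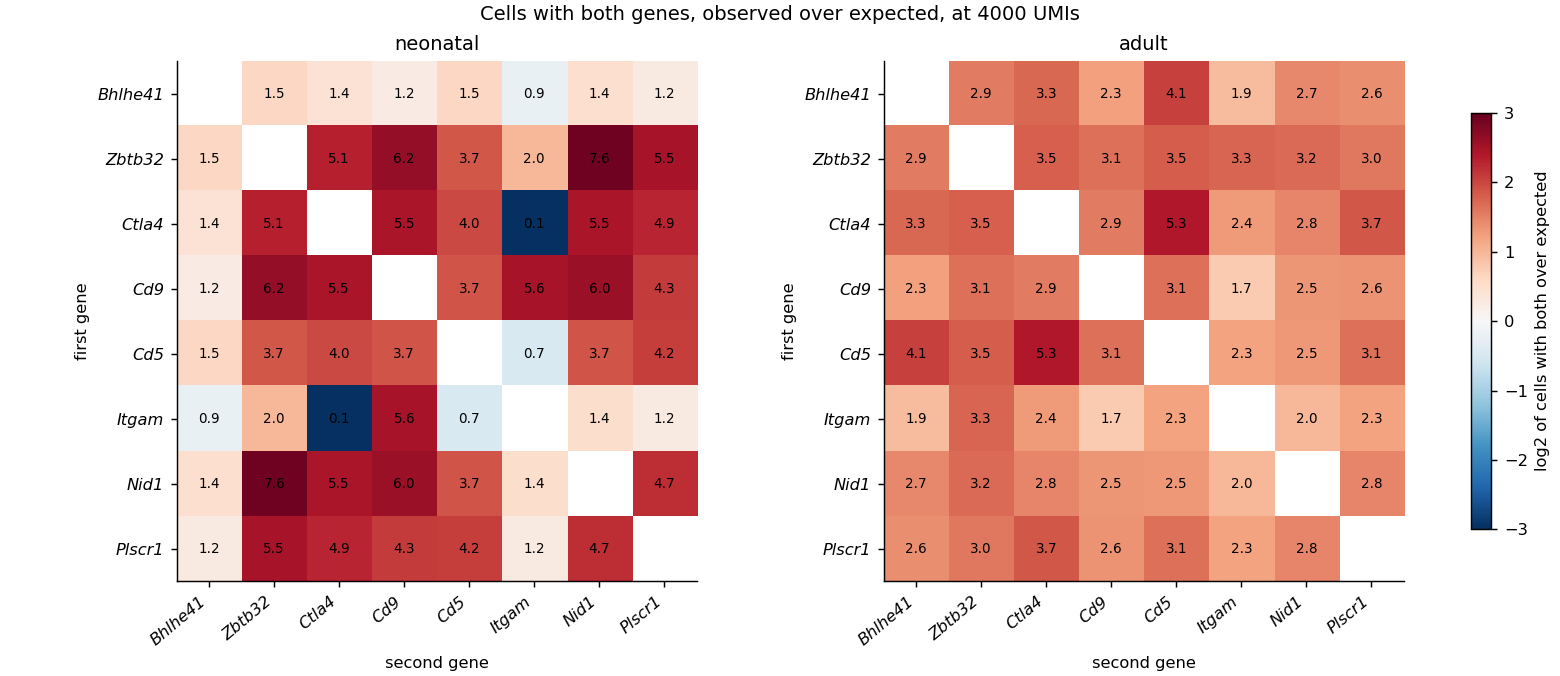
Cells with both genes over the number expected from their shares, for all 28 pairs in the neonatal (left) and adult (right) library, as printed in each square and coloured on a log2 scale that ends at 8-fold. Cells were thinned to 4000 UMIs and numbers are means over 20 thinnings. The neonatal Bhlhe41 row lies between 0.86 and 1.55, and the adult one between 1.93 and 4.11.

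Bhlhe41 stood apart from most of the other genes in the neonatal library. Its 7 neonatal pairs lay between 0.86 and 1.55 times the expected number, and its 7 adult pairs between 1.93 and 4.11. Without the cells bearing markers of other cell types they lay between 1.18 and 1.56, and between 2.08 and 4.69. In depth bins with all UMIs, the intervals of the neonatal Bhlhe41 pairs all reached the expected number (1.05 times, 0.84 to 1.30, for Cd9), and those of the 7 adult pairs did not (1.38 times, 1.22 to 1.55, for Cd9). Cd80, a costimulatory molecule outside the 8, was with Bhlhe41 in 27 neonatal cells where 25.4 were expected and in 137 adult cells where 93.1 were. With Zbtb32, Cd80 was in 41 neonatal cells where 24.0 were expected and in 138 adult cells where 80.6 were.

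Counted by the number of the other 7 genes in a cell, Bhlhe41 was in 10.9% of the neonatal cells with 0 others (178 of 1639, 9.39% to 12.5%) and 10.7% of those with 2 or more (12 of 112, 5.66% to 18.0%) at 4000 UMIs. In adult cells it was in 3.57% (77 of 2155, 2.83% to 4.44%) and 18.5% (46 of 248, 13.9% to 24.0%). The neonatal library thus held Bhlhe41 in many cells with 0 other B1 genes, and the adult library did so less. Means over the 20 other thinnings were 10.2% and 15.5% in the neonatal and 2.94% and 18.0% in the adult library, ratios of 1.53 and 6.13, and 1.57 and 6.47 without the cells bearing markers of other cell types. With 1 library per age this difference was not tested.

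The other 7 genes were found more often where others were present, in both libraries. In the same means, Zbtb32 went from 1.25% to 25.7% in neonatal cells and from 1.66% to 16.9% in adult cells. Cd9 went from 2.98% to 37.8% and from 6.38% to 32.9%, and Nid1 from 1.52% to 24.1% and from 4.15% to 24.4%. For these 3 genes the ratio of the shares was larger in the neonatal library (20.6, 12.7 and 15.9) than in the adult (10.2, 5.16 and 5.88). For Cd9 and Nid1 the neonatal share in cells with 0 others was the lower one by more than 2-fold, and for Zbtb32 the neonatal share in cells with 2 or more was the higher. Itgam was the weakest of the 7 in both, with ratios of 2.56 and 4.09. Without the cells bearing markers of other cell types its ratios were 1.85 and 4.21, so neonatal Itgam was near neonatal Bhlhe41 (1.57).

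**Figure D3:**
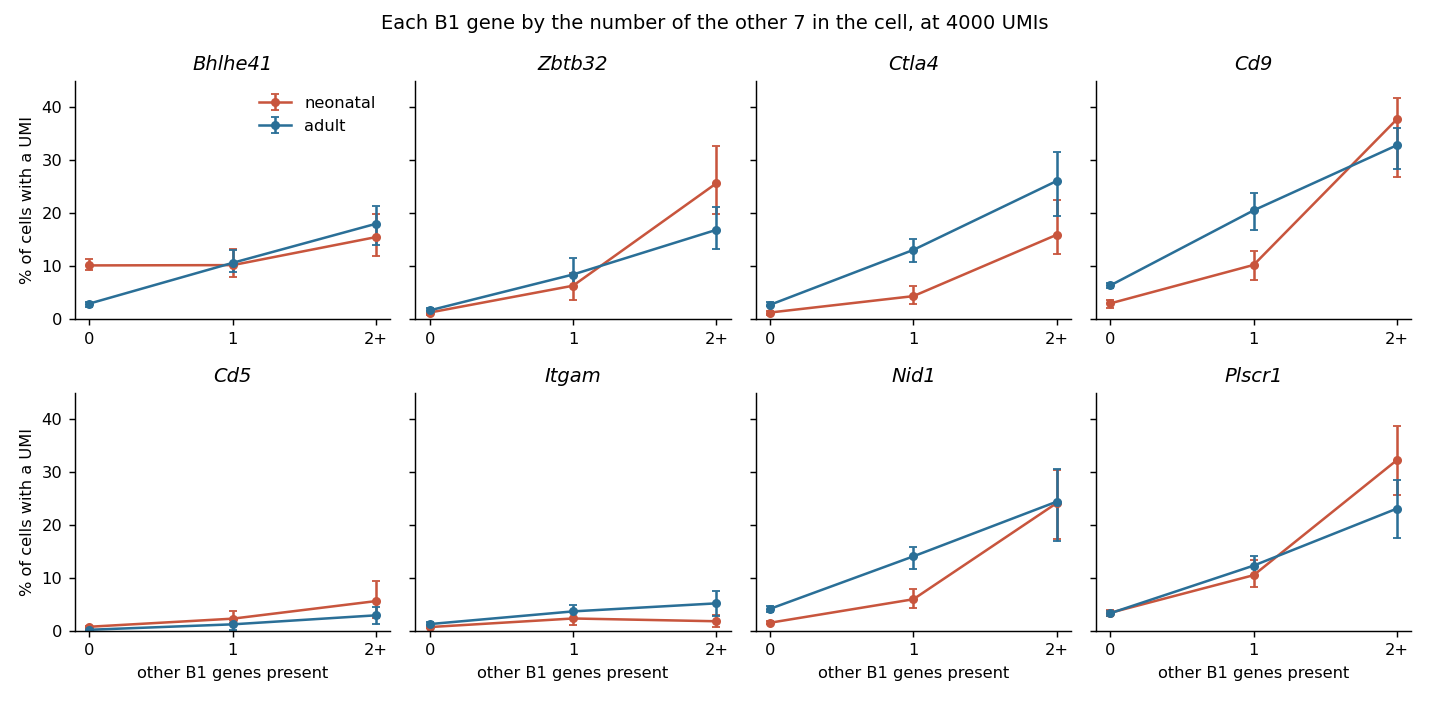
Percent of cells with a UMI of each B1 gene by the number of the other 7 genes found in the cell (0, 1, 2 or more), in neonatal and adult cells thinned to 4000 UMIs. Points are means over 20 thinnings, and lines run from the lowest to the highest thinning and do not cover counting error. Neonatal Bhlhe41 is at 10.2% of cells with 0 other genes, where the adult library has 2.94%.

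Cd5 and Itgam were too rare to be followed at matched depth. At 2000 UMIs, 14 neonatal cells had Cd5, 12 had Itgam and 0 of 2077 had both, with 0.081 cells expected. By the exact interval this allows a share of up to 0.177% (3 of 2077 cells are 0.144%). In the adult library 10 cells had Cd5, 29 had Itgam and 1 had both, with 0.080 expected, and over 20 other thinnings 0 adult cells had both. At 4000 UMIs, 0 of 26 neonatal Cd5 cells had Itgam (0.266 expected), and 2 of 17 adult ones did (0.330 expected, ratio 6.06, 0.73 to 21.9). With all UMIs in depth bins, both genes were in 4 neonatal cells where 4.75 were expected (ratio 0.84, 0.23 to 2.15) and in 24 adult cells where 13.4 were (1.79, 1.15 to 2.67). Without the cells bearing markers of other cell types, 3 and 18 cells remained, against 2.61 and 10.6 expected (1.15, 0.24 to 3.35, and 1.70, 1.01 to 2.68). Separation of the 2 transcripts was not detectable in either library at this depth. In the adult library the intervals in depth bins lay above the expected number. Depth still varies within a bin, so these ratios are not at fully matched depth. At matched depth an adult excess was not resolved, with an interval of 0.73 to 21.9 at 4000 UMIs and 0 cells in the 20 other thinnings to 2000 UMIs.

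Among the cells without markers of other cell types, and with all their UMIs, 61 neonatal and 49 adult cells had Cd5 alone, and 27 and 155 had Itgam alone. Cells with Cd5 thus outnumbered those with Itgam in the neonatal library and the reverse held in the adult. At least 2 of the other 6 genes were in 62.3% of the neonatal cells with Cd5 alone, 37.0% of those with Itgam alone and 8.41% of those with neither, and in 87.8%, 69.0% and 14.5% of the adult cells. The cells with Cd5 or Itgam were also deeper, with medians from 10199 to 16765 UMIs against 5894 and 5606 for neither, so these shares are not at matched depth. At 4000 UMIs, with other cell types kept in, at least 2 of the other 6 were in 7 of 26 neonatal cells with Cd5 alone and 4 of 20 with Itgam alone. In the adult library the numbers were 6 of 15 and 14 of 54. The 3 neonatal and 18 adult cells with both had medians of 41763 and 42255.5 UMIs. In CPM, which pools the UMIs of a class so that deeper cells weigh more, Cd9 was higher with Cd5 than with Itgam in both libraries. It was at 122 against 61.4 CPM in the neonatal (log2 ratio of Itgam alone over Cd5 alone -0.99, -1.66 to -0.37) and 97.4 against 48.7 CPM in the adult (-0.999, -1.37 to -0.62). Ctla4 differed in the neonatal library, with 84 UMIs in cells with Cd5 alone and 1 in cells with Itgam alone, and in the adult library it was at 70.4 and 58.0 CPM (-0.28, -0.68 to 0.13). Tppp3, a tubulin polymerization protein among the B1 genes fixed beside the 8, was higher with Itgam in both, at 132 against 20.4 CPM (2.69, 1.93 to 3.51) and 45.3 against 27.0 CPM (0.75, 0.16 to 1.39). Zbtb32 and Nid1 had intervals that held 0 in both libraries.

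**Figure D4:**
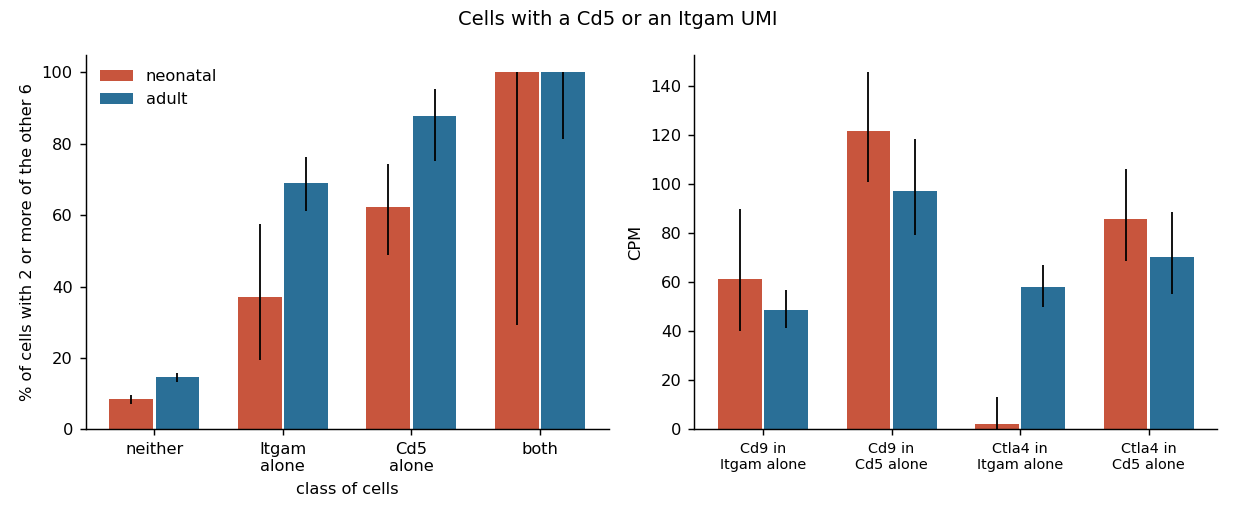
Left, percent of cells with at least 2 of the other 6 B1 genes among cells with neither Cd5 nor Itgam, Itgam alone, Cd5 alone or both, with all UMIs and without cells bearing markers of other cell types. Right, Cd9 and Ctla4 in CPM in cells with Itgam alone or Cd5 alone. Bars start at 0 and lines are exact 95% intervals. At unmatched depth, cells with Cd5 alone more often have 2 or more of the other genes than cells with Itgam alone in both libraries. Neonatal Ctla4 is near 0 with Itgam alone.

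Cells were then divided at 2000 UMIs by Cr2 (CD21), Fcer2a (CD23) and Vpreb3, a gene of immature B cells. The study listed Cd9 and Ctla4 for CD11b+ cells beside subsets set by CD21 and CD23. For Cd9 and Ctla4 the division is thus not independent of how they were chosen. The summed level of the 8 genes was highest in cells with none of the 3, at 324 CPM in 750 neonatal and 309 CPM in 1290 adult cells. It was lowest in cells with both Cr2 and Fcer2a, at 49.5 CPM in 37 neonatal and 75.3 CPM in 315 adult cells. With all UMIs, 3 or more of the 8 were in 147 of the 750 neonatal cells (19.6%, 16.8% to 22.6%) and 339 of the 1290 adult cells (26.3%, 23.9% to 28.8%) with none of the 3. They were in 0 of 37 and 18 of 315 (5.71%, 3.42% to 8.88%) cells with Cr2 and Fcer2a. Median depths were 7012 and 8022 UMIs in the first class and 6077 and 6046 in the second. Cells bearing markers of other cell types were kept in here, and the classes were not recomputed without them. With Pecam1 off the lists, the 47 such neonatal cells held 27.9% of the Cd9, 22.9% of the Ctla4 and 52.0% of the Itgam UMIs of their library. The 69 adult ones held 6.01%, 8.98% and 14.0%. How these cells were spread over the classes was not tested. In cells with none of the 3, Cd9 and Ctla4 made up 82.0 and 41.8 CPM of the neonatal sum. They made up 72.9 and 61.5 CPM of the adult sum. Zbtb32, for example, had 47.2 CPM in neonatal cells with none of the 3 and 7.54 CPM in those with Vpreb3. In adult cells Zbtb32 had 32.0 and 9.30 CPM.

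Bhlhe41 again differed in neonatal cells. It had 39.3 CPM in cells with none of the 3 (34.9 to 44.2) and 38.5 CPM in cells with Vpreb3 alone (33.2 to 44.5), and 24.1 to 29.6 CPM in the other 3 classes. In adult cells it had 36.1 CPM in cells with none of the 3 (33.1 to 39.4) and 12.5 to 15.6 CPM in the other 4 classes. The intervals of the 2 libraries thus overlapped in cells with none of the 3. They lay apart in the cells with Vpreb3 alone, of which the neonatal library held 725 and the adult 461. They also lay apart in the cells with Fcer2a alone, at 24.1 CPM in 488 neonatal (19.1 to 29.9) and 12.5 CPM in 1187 adult cells (10.4 to 14.9). In the classes with Cr2 they overlapped.

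**Figure D5:**
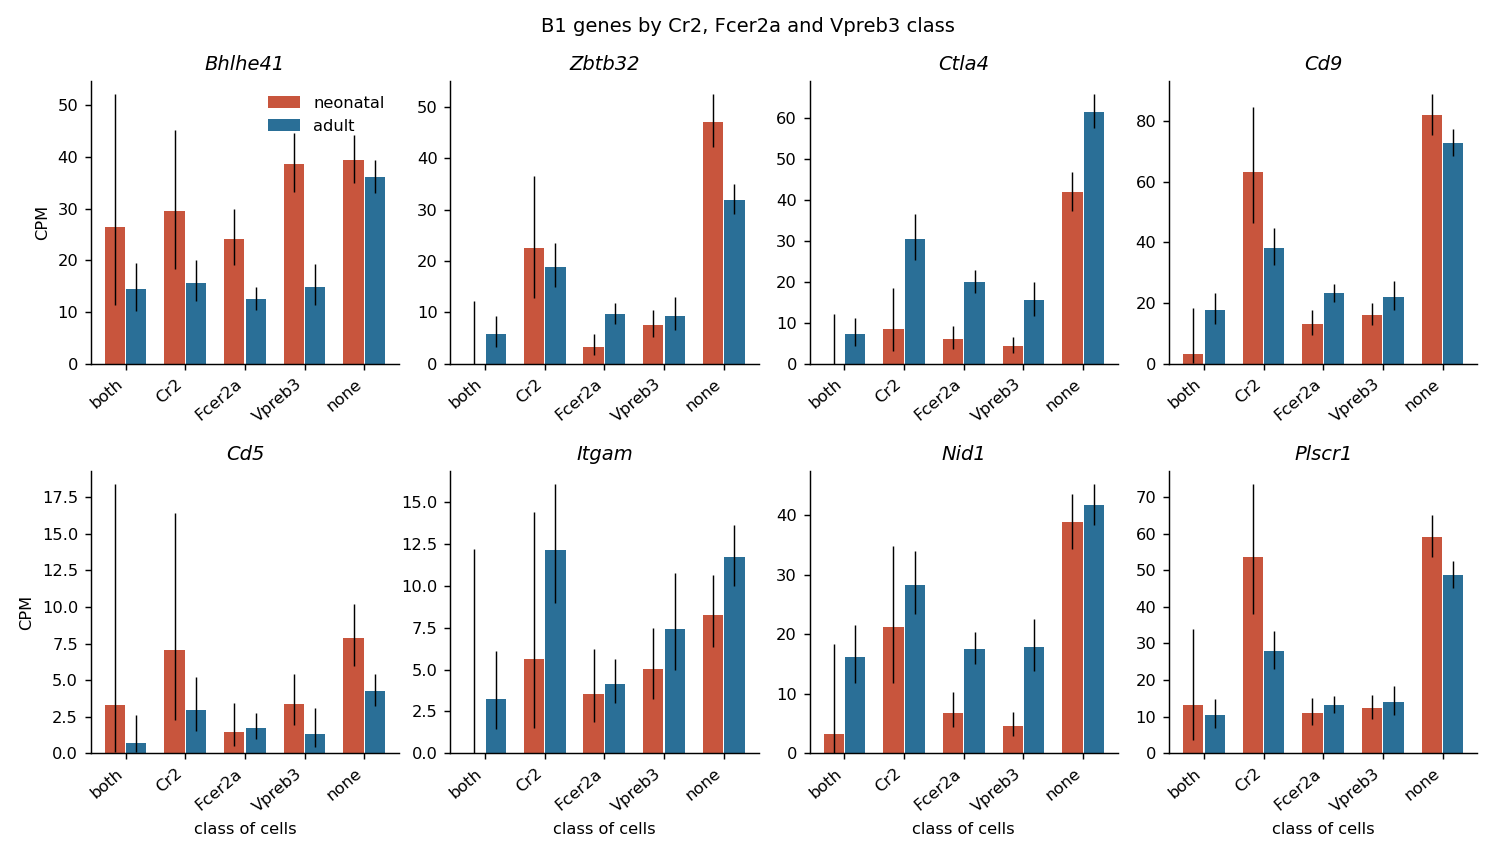
Level of each B1 gene in CPM in cells with both Cr2 and Fcer2a, Cr2 alone, Fcer2a alone, neither but Vpreb3, or none of the 3, in the neonatal and adult library. Bars start at 0, lines are exact 95% intervals and each panel has its own scale. Cells bearing markers of other cell types were kept in. Most of the genes are highest in cells with none of the 3, and neonatal Bhlhe41 is as high in cells with Vpreb3.

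To compare the neonatal and adult form, cells with 3 or more of the 8 at 4000 UMIs were set against cells with 0, without the cells bearing markers of other cell types. This left 42 neonatal and 104 adult cells with 3 or more and 1449 and 2048 with 0, with median depths of 14088.5 and 14501.5 against 5894 and 6347 UMIs. The 8 genes themselves chose the cells, so their levels there are a description. Zbtb32 was at 129 CPM in the neonatal and 74.8 CPM in the adult cells with 3 or more, Cd9 at 258 and 152 CPM, and Plscr1 at 207 and 128 CPM. Ctla4 went the other way, at 106 and 222 CPM. In cells with 0, each of Zbtb32, Cd9 and Plscr1 was higher in the adult library (5.6, 14.7 and 9.0 CPM against 3.0, 5.6 and 5.4 CPM). These cells had 0 UMIs of the 8 genes in the 4000 drawn, so the levels come only from UMIs beyond the draw. They thus depend on depth, which was not matched there, and are no measure of a difference between the libraries.

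The other B1 genes, which had no part in choosing the cells, were mostly higher beside the 8. They were listed with earlier results of these data known, so they are not independent of the data. Of them, 10 of the 12 neonatal and 9 of the 13 adult genes with at least 20 UMIs were at least 2-fold higher in cells with 3 or more than in cells with 0, as 6.35% and 4.31% of all other genes with as many UMIs were. In each library 1 was at least 2-fold lower, as 13.3% and 9.53% of the other genes were. Spn, which encodes the B1 marker CD43, was at 24.1 and 24.0 CPM in neonatal and adult cells with 3 or more, and at 1.2 and 5.2 CPM in cells with 0. Itgb1, an integrin chain, was at 160 and 225 CPM against 30.3 and 49.2 CPM. Tppp3 was at 46.8 and 123 CPM against 1.1 and 12.2 CPM. Rasgef1b was lower in cells with 3 or more, at 51.1 against 127 CPM in neonatal and 46.9 against 139 CPM in adult cells. Ighd, which encodes the IgD of naive B cells, was at 139 against 556 CPM and 243 against 859 CPM, and Vpreb3 at 32.6 against 455 CPM and 36.8 against 227 CPM. In each library 4 of the 6 follicular markers, with Ighd, and 3 of the 6 transitional markers, with Vpreb3, were at least 2-fold lower. The transitional marker Cd24a was lower in the neonatal cells (221 against 306 CPM) and higher in the adult ones (330 against 266 CPM). Ighm, the IgM constant gene, was at 4592 and 3927 CPM in the cells with 3 or more.

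Several genes that differed between the neonatal and adult cells with 3 or more also differed in the cells with 0. Arid3a, a factor of fetal B lymphopoiesis, was at 55.4 CPM in neonatal and 22.3 CPM in adult cells with 3 or more (log2 ratio -1.31, -1.98 to -0.64), and differed as much in cells with 0 (-1.33, -1.59 to -1.07). Igf2bp3, an RNA-binding protein of fetal progenitors, was at 32.6 and 5.6 CPM (-2.55, -3.78 to -1.42), against -1.28 (-1.53 to -1.04) in cells with 0. Lin28b and Dntt had 0 UMIs in both libraries, and Hmga2 and Igf2bp1 18 and 1 in all. Ly6a (Sca-1) was at 343 and 978 CPM (1.51, 1.31 to 1.71) against 2.81 (2.70 to 2.93) in cells with 0. Isg15 was at 7.10 and 65.8 CPM, against 7.04 and 51.9 CPM in cells with 0. Cd44 was higher in the neonatal cells (265 and 126 CPM), as was the proliferation gene Mki67 (66.7 and 37.4 CPM). In cells with 0, Mki67 went the other way, at 8.33 CPM in neonatal and 12.7 CPM in adult cells (0.61, 0.24 to 0.98). Of the other cycling genes in cells with 3 or more, Ccnb2 was also higher in the neonatal library (-1.64, -3.09 to -0.23). The intervals of Top2a, Birc5 and Cdk1 held 0, and Cdk1 was the higher in adult cells (0.46). Mki67 was at 129 CPM in the neonatal cells with 3 or more before cells bearing markers of other cell types were left out, and 34.03 CPM in the adult ones. The variable genes Ighv11-2, Ighv12-3, Igkv14-126 and Igkv4-91, known from B1a cells, summed to 1.83 and 1.91 CPM over all cells, too few to follow.

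Genes were named by a fixed rule from 1296 genes with at least 100 CPM in a class. They were those whose ratio of cells with 3 or more to cells with 0 differed most between the libraries. The cells were those at 4000 UMIs without markers of other cell types, settings added after seeing the data. S100a6, a calcium-binding protein, was at 3930 against 158 CPM in neonatal and 1607 against 360 CPM in adult cells, and Anxa2, an annexin, at 311 against 8.43 and 172 against 30.8 CPM. Both ratios were thus larger in the neonatal library. Egr1, an early response factor, was at 270 CPM in the neonatal cells with 3 or more and 96.8 CPM in those with 0, and at 60.3 and 86.0 CPM in the adult. Toward the adult, Lgals3, a galectin, had the largest difference of the 1296. It was at 32.6 against 31.7 CPM in neonatal and 124 against 15.04 CPM in adult cells. The genes named depended on the setting. With other cell types kept in, S100a6, Anxa2 and Lgals3 were named at 4000 UMIs and Egr1 was not. At 2000 UMIs, with other cell types kept in, none of these genes was named. There, Hist1h2ae led toward the neonatal and Cd24a toward the adult library.

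The genes whose presence per cell was most like that of each B1 gene, by the mean phi coefficient of the 2 libraries over 7934 genes at 2000 UMIs, were led by S100a6. S100a6 came first for Cd9 (0.24), Zbtb32 (0.20), Plscr1 (0.19), Ctla4 (0.15) and Nid1 (0.15). For Itgam it was S100a4 (0.12), at 0.24 in neonatal and -0.00086 in adult cells, and for Cd5 Ubash3b (0.09). Cells bearing markers of other cell types were kept in for all coefficients. The 23 neonatal cells with at least 2 myeloid UMIs held 52.0% of the neonatal Itgam UMIs, and the 31 such adult cells 7.85% of the adult ones. The coefficients of Itgam were not recomputed without them. For Bhlhe41 the highest value was 0.07, with Iglc1, the constant gene of a lambda light chain. At 4000 UMIs S100a6 again came first for Cd9, Nid1 and Plscr1 and S100a4 for Itgam, while Anxa2 came first for Zbtb32 (0.26), Lmo7 for Ctla4 (0.20), Cd80 for Cd5 (0.15) and Atf3 for Bhlhe41 (0.09). Coefficients this small in sparse counts describe an order that depends on depth, and the cells share their library and differ in depth before thinning.

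Levels of the B1 genes in droplets with 20 to 100 UMIs, taken as free RNA, differed from those of the cells in both directions. Zbtb32 was at 40.3 (neonatal) and 27.2 CPM (adult) there, against 24.7 and 19.5 CPM in the cells. Nid1 was at 13.3 and 9.22 CPM against 20.8 and 28.6 CPM, and Cd9 at 33.4 and 33.1 CPM against 46.4 and 44.7 CPM. These droplets averaged 64.8 (neonatal) and 79.1 UMIs (adult). If each cell carried that many UMIs of free RNA, 0.018% to 0.374% of cells would hold a UMI of a given B1 gene, less than the share with a UMI for each of the 8 in either library.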

How the data were processed

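Single-cell RNA was captured from sorted myocardial B cells on the Chromium instrument in 1 library per age. Per the Methods, the 3′ end was sequenced in this experiment. The authors counted UMIs per gene and barcode with Cell Ranger (3.0.2 per the file headers, a later release in the Methods) on mm10, per the submitters' processing notes, and deposited the raw counts of every barcode, unfiltered. The antibody rows held 2, 1 and 0 UMIs (neonatal) and 0, 1 and 1 (adult), and were not used.

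The genes and lists were chosen with earlier results of these data known. Levels were summed UMIs over all gene UMIs (CPM), with exact Poisson, binomial and conditional binomial intervals. Matched depth was a random draw of 2000 UMIs per cell, and 4000, the 20 further draws at 4000, the depth bins, the lists without Pecam1 and the Bhlhe41 ratio were added after seeing the data. Named genes were the 8, fixed lists, the 3 nearest genes by phi, and the 10 most unequal rises toward each age. Doublets were not called. Intervals and thinning were checked on simulated data. Python 3.11.15, numpy 2.4.6, scipy 1.17.1, pandas 2.3.3 and matplotlib 3.10.9 were used. No test across samples was possible, since each age has 1 library. Some items are not reported here.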

Additional observations from a re-analysis of the deposited data

Results flagged for a closer look

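The share of cells with Bhlhe41 by other B1 genes differed in sign between the libraries: in cells with 2 or more of the other 7 genes against cells with 0, at 4000 UMIs, the log2 ratio of the share was -0.0195 in neonatal and 2.38 in adult cells. The difference was not tested. The neonatal sign rests on 1 thinning: over 20 others the mean ratios were 1.53 and 6.13, above 1 in both libraries.

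The 14 neonatal and 4 adult droplets that passed the depth and mitochondrial limits without a Cd79a UMI were left out of all comparisons, and some B1 genes were higher there than in the cells. In the neonatal droplets Cd9 had 37 UMIs (341 CPM, 240 to 469, against 46.4 CPM in the cells), Itgam 16 UMIs (147 CPM, against 6.10) and Cd5 11 UMIs (101 CPM, against 5.12). In the adult droplets Cd5 had 2 UMIs (71.6 CPM, 8.68 to 259, against 2.77).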

How the results depend on the processing

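With 1 library per age, leaving out a replicate was impossible, and no paired analysis was possible because each age has 1 library. Of 225 values recomputed under 17 settings, 168 moved by less than their counting interval, 52 moved further, and 5 log2 ratios whose interval lay clear of 0 turned sign. Those 5 were the ratios of Itgam with a mitochondrial limit of 7% (-0.60), of Zbtb32 (0.10) and Plscr1 (0.017) without barcodes shared between the libraries, and of Zbtb32 (0.36) and Plscr1 (0.12) without the 5% of cells with most UMIs. Of the cells with shared barcodes, 59 of 61 neonatal and 43 of 45 adult ones were among the deepest 5%, so these settings overlap. The causes were not tested. The ratio of Cd9, whose interval held 0, had the opposite sign in 7 of 13 settings, and the median of the 8 genes in 6.

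Over the 8 genes the median log2 ratio, -0.15, became 0.28 without cells bearing other cell types' markers (0.071 with Pecam1 off the lists), 0.20 without shared barcodes, 0.42 without the deepest 5% and 0.10 as a mean over cells. The share of cells with 3 or more genes, 0.481% in neonatal and 0.858% in adult cells at 2000 UMIs, was 0.144% and 0.111% at 1000 UMIs and 2.56% and 3.82% at 4000. The neonatal share was 0.938% in cells with a Y-linked and no Xist UMI, and the adult share 0.496% without the deepest 5%.

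Cd5 with Itgam in adult cells, 12.5 times the expected number on 1 cell, was 0 under 10 of 14 settings: a minimum of 4000 UMIs, either other mitochondrial limit, 3 required B cell genes, either filter on other cell types, without the deepest 5%, Y-linked cells, thinning to 1000 UMIs and each of 20 other thinnings. The ratio of the Bhlhe41 share in cells with 2 or more other genes over cells with 0, at 2000 UMIs, was 0.81 in neonatal and 7.19 in adult cells. The neonatal ratio was 0 with a mitochondrial limit of 7%, 2.45 with 3 required B cell genes and 2.56 without other cell types. The adult ratio was 3.95 with a minimum of 4000 UMIs, 2.28 in Y-linked cells and 0 at 1000 UMIs. On these few cells the ratio at 2000 UMIs is poorly fixed. Scaling by the median of ratios sets the median of the 9169 genes with at least 50 UMIs in both libraries, which was -0.15, to 0.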
